A study of Homo sapiens with 12 samples.

Results

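CYP2E1, FMO5, HSD3B1 and MUC13 are 4 genes of the 15822 loci measured by RNA sequencing in HepaRG cells, a line from a human liver tumour that differentiates towards hepatocytes and bile duct cells. The rows with these symbols were taken from the deposited expression table. The genes were selected on their lower level with phenobarbital (PB) than with solvent in cells lacking the human constitutive androstane receptor (CAR), so that difference is given as a description and not tested. Cells with the receptor knocked out (KO) and wild-type cells (WT) had each been exposed to PB, to the synthetic CAR agonist CITCO or to the solvent DMSO. This gave 6 groups of 2 libraries. They are KO cells with PB, KO cells with CITCO, KO cells with DMSO, WT cells with PB, WT cells with CITCO and WT cells with DMSO. All 12 libraries come from the same line. The sources used here do not give the doses, the exposure times, the edit of the receptor gene, whether the KO cells are 1 clone or whether the 2 libraries of a group came from separate cultures. The spread behind each p-value is that between libraries and may be technical.

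CAR, encoded by NR1I3, is a nuclear receptor that switches on drug-metabolising genes in hepatocytes. PB activates it indirectly, through its signalling state, while CITCO binds the human receptor as a ligand, and PB also activates the related pregnane X receptor. Of the 4 genes, CYP2E1 encodes the ethanol-inducible cytochrome P450 of the liver, which oxidises ethanol, paracetamol and small solvents. FMO5 encodes a flavin-containing monooxygenase of liver and gut that oxidises carbonyl compounds. HSD3B1 encodes a steroid dehydrogenase/isomerase, known best from placenta and peripheral tissues, that converts pregnenolone to progesterone and dehydroepiandrosterone to androstenedione. MUC13 encodes a transmembrane mucin of the gut epithelium.

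The genes lie apart in the genome. In GENCODE v29 on GRCh38, CYP2E1 spans bases 133520406 to 133561220 of chromosome 10 on the plus strand, and FMO5 spans bases 147175351 to 147243050 of chromosome 1 on the minus strand. HSD3B1 spans bases 119507198 to 119515054 of chromosome 1 on the plus strand, and MUC13 spans bases 124905442 to 124953819 of chromosome 3 on the minus strand. The deposited table carries symbols and no coordinates used here. The promoters are printed because the 4 genes differed in the same direction under PB in KO cells, so that a reader can see what their proximal sequences share. Each line holds the 250 bases before the RefSeq transcription start on GRCh38.p14, read 5′ to 3′ on the gene's own strand, with every match to the motifs searched in capitals. For CYP2E1 the window is chr10:133527113-133527362 (plus strand), inside the longer GENCODE gene. It is chr1:147225340-147225589 (minus strand) for FMO5, chr1:119506953-119507202 (plus strand, the first of 2 RefSeq starts) for HSD3B1 and chr3:124934752-124935001 (minus strand) for MUC13.
CYP2E1: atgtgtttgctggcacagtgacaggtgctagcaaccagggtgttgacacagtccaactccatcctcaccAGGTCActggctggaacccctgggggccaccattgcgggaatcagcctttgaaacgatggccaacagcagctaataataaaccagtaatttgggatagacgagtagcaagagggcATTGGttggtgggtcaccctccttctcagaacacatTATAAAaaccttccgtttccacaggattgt
FMO5: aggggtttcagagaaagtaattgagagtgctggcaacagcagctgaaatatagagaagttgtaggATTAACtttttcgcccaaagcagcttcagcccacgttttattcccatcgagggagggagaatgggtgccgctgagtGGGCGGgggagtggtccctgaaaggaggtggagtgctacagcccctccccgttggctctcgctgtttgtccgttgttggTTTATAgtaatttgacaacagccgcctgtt
HSD3B1: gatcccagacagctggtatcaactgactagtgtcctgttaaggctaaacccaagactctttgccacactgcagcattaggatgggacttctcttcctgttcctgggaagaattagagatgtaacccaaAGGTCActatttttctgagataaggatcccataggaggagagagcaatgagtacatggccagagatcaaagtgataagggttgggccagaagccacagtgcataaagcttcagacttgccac
MUC13: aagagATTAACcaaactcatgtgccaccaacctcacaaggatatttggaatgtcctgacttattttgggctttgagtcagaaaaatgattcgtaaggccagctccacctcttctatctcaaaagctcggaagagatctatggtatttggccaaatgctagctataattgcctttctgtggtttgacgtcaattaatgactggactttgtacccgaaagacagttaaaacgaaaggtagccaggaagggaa

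The 4 promoters had no motif in common among the 7 searched on both strands. A core motif of hepatocyte nuclear factor 1, a liver and gut transcription factor (GTTAAT, printed as ATTAAC on the other strand), was found in FMO5 at 185 to 180 bases before the start and in MUC13 at 245 to 240 bases. It occurs in 6.22% of 27305 promoter windows of the same length. The nuclear receptor core motif AGGTCA was found in CYP2E1 at 181 to 176 bases and in HSD3B1 at 122 to 117 bases, and occurs in 12.1% of windows. A TATA box (TATAAA, printed as TTTATA on the other strand) lay 30 to 25 bases before the start in CYP2E1 and FMO5 (11.1% of windows). A CCAAT box (CCAAT, printed as ATTGG on the other strand) lay at 66 to 62 bases in CYP2E1 (33% of windows), and a GC box (GGGCGG) at 109 to 104 bases in FMO5 (42.3% of windows). The nuclear receptor core motif AGTTCA (8.91% of windows) and the C/EBP motif (TTGCNNAA, 9.13%) were in none of the 4 windows. The 7 motifs do not contain one another. These are matches of letters and not measured binding sites.

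Levels are the deposited values, called CPM here: reads per 1000000 reads of a library size that already carries a normalization factor. The libraries held 54917960 to 65329045 recovered reads (KO) and 49258123 to 66453415 (WT). Levels are not divided by transcript length, so they compare libraries and not genes. All 4 genes passed the filter of at least 1 CPM in at least 2 libraries, as did 15792 of the 15822 loci. The NR1I3 transcript did not separate the genotypes. Its mean was 15.9 CPM (KO PB) against 15.1 CPM (WT PB), 10.2 (KO CITCO) against 9.51 (WT CITCO) and 10.8 (KO DMSO) against 11.7 (WT DMSO). The limma adjusted p was 0.523, 0.388 and 0.273 for these 3 comparisons. Without the position of the edit, this level does not check the labels. Markers of several cell types moved with genotype, where 57.7% of all loci passed with DMSO (28.3% as higher in KO and 29.4% as lower). The summed level of the hepatocyte markers (9 of 10 in the table) was 58220 to 61260 CPM (KO) against 140500 to 158100 CPM (WT), most of it albumin (ALB). With DMSO, 6 of these 9 passed as lower in KO and 1 as higher, FGB, at 3434 to 3688 CPM (KO) against 2550 to 3020 CPM (WT) over all libraries. TTR and TAT did not pass with DMSO, and their genotypes overlapped over all libraries. The biliary markers (4 of 8) summed to 103.7 to 121 CPM (KO) against 377.2 to 467.4 CPM (WT), but the list did not move one way. KRT19, which holds most of that sum, and SOX9 passed as lower in KO with DMSO, and KRT7 and SPP1 as higher. The mesenchymal markers (6 of 8) summed to 244.7 to 264.1 CPM (KO) against 120.5 to 137.9 CPM (WT), but this list was mixed as well. With DMSO, 3 of the 6 passed as higher in KO (DCN, LUM and ACTA2). COL3A1 passed as lower, at 25.8 and 25.6 CPM (KO) against 32.8 and 35.8 CPM (WT), while POSTN overlapped. COL1A1 did not pass, at 8.28 and 8.88 CPM (KO) against 6.29 and 7.95 CPM (WT). The proliferation markers (4 of 4) summed to 361.5 to 460.6 CPM (KO) against 130.6 to 183.3 CPM (WT), and all 4 passed as higher in KO with DMSO. In these bulk samples, fewer cells of a type and less RNA per cell cannot be told apart.

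CYP2E1 was low in every KO library and high in every WT library. KO cells held 5.86 and 5.47 CPM with PB, 9.60 and 10.05 CPM with CITCO and 13.2 and 11.04 CPM with DMSO. WT cells held 92.6 and 89.7 CPM with PB, 88.0 and 87.4 CPM with CITCO and 132.7 and 132.1 CPM with DMSO. The lowest WT library was thus far above the highest KO library, and within each genotype the DMSO libraries were the highest. Within a treatment, KO lay below WT without overlap for 38.9% to 40.5% of all loci. The share over all 12 libraries was not counted. From high to low, the order of the group means was WT DMSO, WT PB, WT CITCO, KO DMSO, KO CITCO and KO PB, a span of 23.4-fold. No neighbours in that order overlapped, although WT PB and WT CITCO differed by less than the test could separate. Read numbers per library were 373 to 405 with PB in KO cells, and 5950 to 6301 with DMSO in WT cells.

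FMO5 stood between 56.7 and 69.1 CPM in all libraries except those of KO cells with PB. Those 2 libraries held 38.5 and 36.9 CPM, while KO cells held 56.9 and 59.1 CPM with CITCO and 69.1 and 68.6 CPM with DMSO. WT cells held 67.6 and 64.0 CPM with PB, 60.6 and 56.7 CPM with CITCO and 69.0 and 64.6 CPM with DMSO. The order of the means was KO DMSO, WT DMSO, WT PB, WT CITCO, KO CITCO and KO PB, a span of 1.83-fold. Of the neighbours in this order, KO DMSO overlapped WT DMSO, WT DMSO overlapped WT PB, and WT CITCO overlapped KO CITCO. The genotypes thus overlapped under DMSO, where the mean was 68.9 ± 0.360 CPM in KO cells and 66.8 ± 3.11 CPM in WT cells (SD, n = 2 each).

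HSD3B1 followed the same order as CYP2E1 over a smaller span of 3.93-fold. KO cells held 8.09 and 6.24 CPM with PB, 15.8 and 14.6 CPM with CITCO and 17.7 and 16.3 CPM with DMSO. WT cells held 24.6 and 21.99 CPM with PB, 22.5 and 23.7 CPM with CITCO and 28.5 and 27.9 CPM with DMSO. All KO libraries were below all WT libraries, where within a treatment this held for 38.9% to 40.5% of all loci. WT PB and WT CITCO overlapped, while the other neighbours in the order did not. Of the 2407 50-base stretches of HSD3B1 transcripts, 137 (5.69%) occurred among the 7 relatives searched. HSD3B2, the adrenal and gonadal relative next to HSD3B1, shared the most, though its own number was not kept. Part of the reads could thus be split between HSD3B1 and HSD3B2. HSD3B2 stood at 0.0440 to 0.245 CPM over the 6 KO libraries and at 2.08 to 4.27 CPM over the 6 WT libraries, below HSD3B1 in each library.

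MUC13 was higher in KO cells, where CYP2E1 and HSD3B1 were lower. KO cells held 12.2 and 11.1 CPM with PB, 14.7 and 15.6 CPM with CITCO and 19.7 and 19.8 CPM with DMSO. WT cells held 5.60 and 5.14 CPM with PB, 3.92 and 4.56 CPM with CITCO and 4.48 and 4.63 CPM with DMSO. Every KO library was above every WT library, where within a treatment this held for 37.3% to 39.9% of all loci. The order was KO DMSO, KO CITCO, KO PB, WT PB, WT DMSO and WT CITCO, a span of 4.66-fold. WT DMSO and WT CITCO overlapped, while the other neighbours did not. MUC13 rested on 201 to 334 reads in a WT library. Of 6 markers of intestinal epithelium, where MUC13 is best known, 3 were in the table, and their sum was 91.49 to 121.3 CPM (KO) against 54.85 to 66.54 CPM (WT). LGALS4 and VIL1 were higher in KO with DMSO, while CDH17 was lower, at 4.36 to 5.49 CPM (KO) against 10.86 to 13.9 CPM (WT) over all libraries. Within KO cells the sum was 91.49 to 97.97 CPM with PB, against 119.3 to 121.3 CPM with DMSO. Within WT cells it was also lower with PB, at 54.85 to 56.46 CPM against 62.3 to 66.54 CPM with DMSO. There both MUC13 libraries with PB were above those with DMSO. The part of these marker levels in the MUC13 result was not tested.

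**Figure D1:**
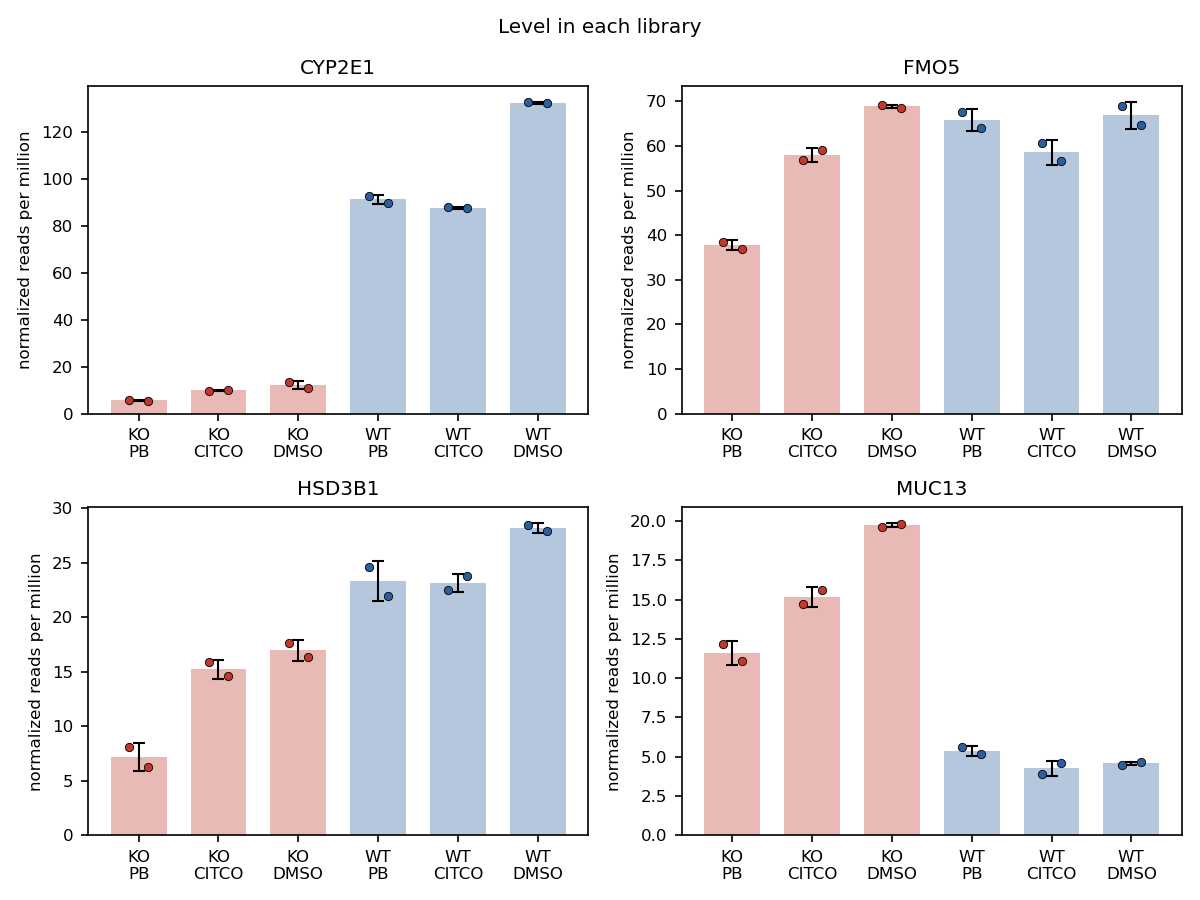
Level of each gene (y axis, normalized CPM, from 0) in the 6 groups (x axis, KO red, WT blue). Bars are means, error bars the SD of 2 libraries and points the libraries; CYP2E1 and HSD3B1 are lowest in KO PB and highest in WT DMSO, FMO5 is lowest in KO PB, and MUC13 is higher in all KO than in all WT libraries.

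The genes were chosen by the difference between KO cells with PB and KO cells with DMSO, where 6.96% of the 15792 loci tested passed the test, 3.09% as lower and 3.87% as higher. HSD3B1 stood at 42.2% of its DMSO mean, CYP2E1 at 46.7%, FMO5 at 54.8% and MUC13 at 58.8%. The estimates on the log2(CPM + 0.5) scale were -1.20 (SE 0.1002) for HSD3B1, -1.03 (SE 0.0744) for CYP2E1, -0.86 (SE 0.0557) for FMO5 and -0.74 (SE 0.102) for MUC13. At these positions, 9, 12, 22 and 32 loci had a lower estimate. Both PB libraries were below both DMSO libraries for each gene, as for 25.3% of all loci. These values chose the genes, so they carry no test. In the same libraries the proliferation markers summed to 437.6 to 438 CPM with PB, against 361.5 to 366.6 CPM with DMSO, and 3 of 4 passed as higher. With CITCO in KO cells they summed to 440.8 to 460.6 CPM, and 3 of 4 passed as higher against DMSO there too. In WT cells 4 of 4 of these markers passed as higher with CITCO and 0 with PB. Their part in the result was not tested.

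The same drug in WT cells had no part in the choice. WT cells with PB against WT cells with DMSO asked how PB moved the genes when the receptor gene was intact. CYP2E1 fell to 91.2 ± 2.05 CPM with PB, against 132.4 ± 0.408 CPM with DMSO (SD, n = 2 each), or 68.9% of the DMSO mean. The log2 difference was -0.54 (95% interval -0.69 to -0.38), with a limma adjusted p of 0.000115, and both PB libraries were below both DMSO libraries. It was the 1 gene of the 4 that passed, where 6.42% of all loci did, 3.76% as lower. HSD3B1 averaged 23.3 ± 1.84 CPM with PB and 28.2 ± 0.449 CPM with DMSO, a log2 difference of -0.27 (-0.48 to -0.06, limma adjusted p = 0.133). FMO5 averaged 65.8 ± 2.52 CPM with PB and 66.8 ± 3.11 CPM with DMSO, a log2 difference of -0.02 (-0.14 to 0.10, limma adjusted p = 0.888). MUC13 averaged 5.37 ± 0.321 CPM with PB and 4.56 ± 0.107 CPM with DMSO, a log2 difference of 0.21 (-0.0019 to 0.43, limma adjusted p = 0.269). The PB libraries lay below the DMSO libraries for CYP2E1 and HSD3B1, as for 22.5% of all loci, and above them for MUC13, as for 18.9%. They overlapped for FMO5. In the authors' deposited table for this comparison, the log2 fold change was -0.54 for CYP2E1 (FDR 5.45e-10), -0.02 for FMO5 (FDR 0.919), -0.27 for HSD3B1 (FDR 0.0807) and 0.24 for MUC13 (FDR 0.24).

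The PB response in KO cells minus that in WT cells is given without a test, since its KO side chose the genes. On the log2 scale it was -0.49 (95% interval -0.72 to -0.27) for CYP2E1. It was -0.84 (-1.004 to -0.67) for FMO5, -0.93 (-1.23 to -0.63) for HSD3B1 and -0.96 (-1.26 to -0.65) for MUC13. For FMO5 the PB libraries were the lowest of the KO cells while they overlapped the DMSO libraries in WT cells. For MUC13 the 2 PB libraries were below DMSO in KO cells and above DMSO in WT cells. The share of all loci with such opposite sides was not counted. Over all loci, 1.01% passed the test of this difference.

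CITCO against DMSO asked for the response to the ligand. In WT cells, CYP2E1 fell to 87.7 ± 0.388 CPM with CITCO, against 132.4 ± 0.408 CPM with DMSO (SD, n = 2 each), or 66.2% of the DMSO mean. The log2 difference was -0.59 (-0.75 to -0.44), with a limma adjusted p of 0.000116. It was again the 1 gene of 4 to pass, against 2.2% of all loci and 1.02% as lower. PB and CITCO were set against the same WT DMSO libraries, so these results are not independent of each other. In WT cells the hepatocyte markers summed to 140500 to 140600 CPM with CITCO, against 153200 to 158100 CPM with DMSO. Of these 9 markers, 2 passed as lower (ALB and FGB) and 0 as higher. The proliferation markers summed to 179.9 to 183.3 CPM with CITCO, against 141.2 to 146.6 CPM with DMSO, and 4 of 4 passed as higher. The part of these markers in the CYP2E1 result was not tested. FMO5 averaged 58.6 ± 2.79 CPM with CITCO and 66.8 ± 3.11 CPM with DMSO, a log2 difference of -0.19 (-0.30 to -0.07, limma adjusted p = 0.0956). Leaving out the second WT DMSO library moved it to -0.23 with a limma adjusted p of 0.0392. HSD3B1 averaged 23.1 ± 0.865 CPM with CITCO and 28.2 ± 0.449 CPM with DMSO (log2 difference -0.28, -0.49 to -0.07, limma adjusted p = 0.169). MUC13 averaged 4.24 ± 0.456 CPM with CITCO and 4.56 ± 0.107 CPM with DMSO (log2 difference -0.10, -0.31 to 0.12, limma adjusted p = 0.687). For CYP2E1, FMO5 and HSD3B1 both CITCO libraries were below both DMSO libraries, as for 24.2% of all loci, and those of MUC13 overlapped. In the authors' deposited table for CITCO in WT cells, CYP2E1 had a log2 fold change of -0.59 (FDR 1.16e-11), FMO5 -0.19 (FDR 0.121), HSD3B1 -0.28 (FDR 0.11) and MUC13 -0.10 (FDR 0.738).

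In KO cells the CITCO means were 9.82 ± 0.317 CPM for CYP2E1, 58.0 ± 1.55 for FMO5, 15.2 ± 0.866 for HSD3B1 and 15.2 ± 0.632 for MUC13. The DMSO means in KO cells were 12.1 ± 1.54, 68.9 ± 0.360, 17.0 ± 0.964 and 19.8 ± 0.135 CPM in the same order (SD, n = 2 each). All 4 genes had both CITCO libraries below both DMSO libraries, as did 21.7% of all loci, while 0.811% of loci passed the test in either direction. The log2 differences were -0.29 (-0.44 to -0.13) for CYP2E1, -0.25 (-0.36 to -0.13) for FMO5, -0.15 (-0.36 to 0.06) for HSD3B1 and -0.37 (-0.58 to -0.15) for MUC13. Without the first KO DMSO library the estimate was -0.16 for CYP2E1 and -0.096 for HSD3B1. They are descriptions, because the DMSO libraries that chose the genes serve as reference here as well. The CITCO response in KO cells minus that in WT cells was 0.31 (0.09 to 0.53) for CYP2E1, -0.06 (-0.22 to 0.11) for FMO5, 0.13 (-0.17 to 0.43) for HSD3B1 and -0.27 (-0.58 to 0.03) for MUC13, where 0.336% of all loci passed. Without the second KO DMSO library it was 0.18 for CYP2E1 and 0.072 for HSD3B1. With a library left out FMO5 ranged from -0.11 to -0.0094, and MUC13 was -0.17 without the second WT CITCO library. PB gave lower means than CITCO in KO cells for all 4 genes, at 57.6% of the CITCO mean for CYP2E1, 65.0% for FMO5, 47.0% for HSD3B1 and 76.4% for MUC13. The genes were chosen for low levels in these PB libraries, so that order follows in part from the choice and carries no test. The share of all loci with a lower mean was not counted.

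PB and CITCO were compared directly in WT cells, where neither group had a part in the choice of the genes. The labels give no doses or times here, so whether these match is unknown. None of the 4 genes passed by limma, edgeR or DESeq2, where 6.28% of all loci passed by limma, and 2 had an unadjusted p under 0.05 by limma and by edgeR and 1 by DESeq2. CYP2E1 averaged 91.2 ± 2.05 CPM with PB and 87.7 ± 0.388 CPM with CITCO (log2 difference 0.06, -0.10 to 0.21, limma adjusted p = 0.742). The interval for HSD3B1 was similarly centred near 0 (0.01, -0.20 to 0.22, limma adjusted p = 0.98). FMO5 was at 112% of the CITCO mean with PB (log2 difference 0.17, 0.05 to 0.28, limma adjusted p = 0.0913), and MUC13 at 127% (0.31, 0.09 to 0.53, limma adjusted p = 0.0864). For CYP2E1, FMO5 and MUC13 both PB libraries were above both CITCO libraries, as for 23.8% of all loci.

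**Figure D2:**
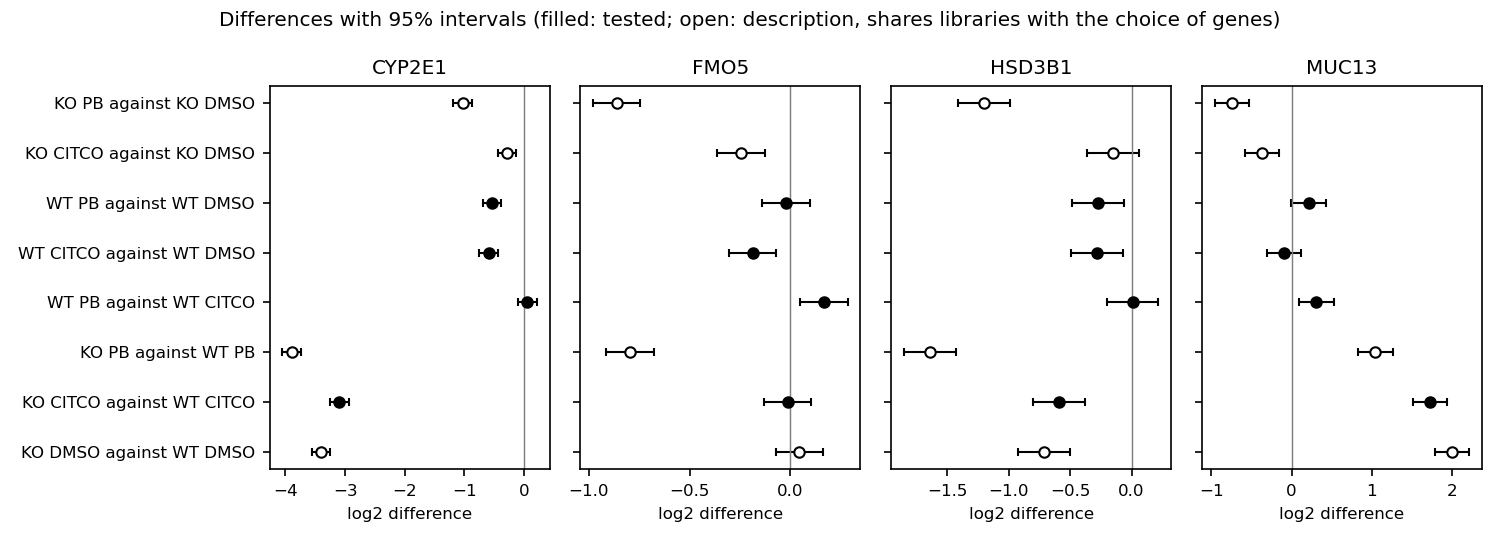
Log2 differences (x axis) with 95% intervals for each gene in 8 comparisons (y axis). Filled points were tested and open points share libraries with the choice of the genes. The points of KO PB against KO DMSO lie left of 0 for all 4 genes. Those of WT PB against WT DMSO do so with a passed test for CYP2E1 alone. The KO against WT points lie left for CYP2E1 and HSD3B1 and right for MUC13. For FMO5 the KO against WT point lies left with PB and near 0 with CITCO and DMSO.

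Genotype was tested under CITCO, the treatment that the choice did not use. In KO cells with CITCO against WT cells with CITCO, 3 of the 4 genes passed, where 59.0% of all loci did (29.3% as higher and 29.8% as lower), so that a passed test there is common. Groups did not overlap, with KO lower, for 40.5% of all loci, and with KO higher for 39.9%. CYP2E1 fell to 11.2% of the WT mean, at 9.82 ± 0.317 CPM (KO) against 87.7 ± 0.388 CPM (WT). Its log2 difference was -3.10 (SE 0.0744, -3.25 to -2.94) with a limma adjusted p of 2.34e-16, and 4 of the 15792 loci had a lower estimate. HSD3B1 fell to 65.8% of the WT mean, at 15.2 ± 0.866 CPM (KO) against 23.1 ± 0.865 CPM (WT), a log2 difference of -0.59 (-0.80 to -0.38, limma adjusted p = 6.45e-05). MUC13 rose to 3.58 times the WT mean, at 15.2 ± 0.632 CPM (KO) against 4.24 ± 0.456 CPM (WT), a log2 difference of 1.73 (1.51 to 1.95, limma adjusted p = 8e-11). FMO5 averaged 58.0 ± 1.55 CPM (KO) and 58.6 ± 2.79 CPM (WT), and its libraries overlapped (log2 difference -0.01, -0.13 to 0.10, limma adjusted p = 0.843). Scaling all libraries to one total raises the median KO minus WT difference over all loci from near 0 to 0.23 on the log2 scale. Under that scaling FMO5 passed as higher in KO (0.24, limma adjusted p = 0.00115), and the other 3 kept their direction at -2.85, -0.34 and 1.97. The hepatocyte marker sum under CITCO was 58220 to 58880 CPM (KO) against 140500 to 140600 CPM (WT). Its part in these differences was not tested.

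Under the other treatments the genotype values are descriptions, and one total per library moves the log2 difference with DMSO to 0.31 for FMO5, against 0.04 as deposited, and to -0.46 for HSD3B1, against -0.72. With DMSO, 57.7% of all loci passed the test, 38.9% did not overlap with KO lower and 37.3% with KO higher. With DMSO, CYP2E1 in KO cells was at 9.16% of the WT mean, HSD3B1 at 60.2% and FMO5 at 103%, and MUC13 was at 4.33 times the WT mean. With PB, CYP2E1 was at 6.21%, HSD3B1 at 30.8% and FMO5 at 57.3% of the WT mean, and MUC13 at 2.16 times. Groups did not overlap with PB for 39.2% of all loci with KO lower and 39.7% with KO higher. The log2 difference of CYP2E1 with PB, -3.90 (-4.05 to -3.74), was the lowest of the 15792 loci tested. MUC13 stayed above WT in all KO groups. FMO5 lay below all WT libraries in KO cells with PB and in no other KO group.

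Other genes that act with the 4 were counted to set them in their pathways. CYP2E1 is one of several routes of ethanol and acetaldehyde oxidation, and 12 of 14 listed genes of that pathway were tested. With PB against DMSO in KO cells, 3 rose and 2 fell, with a median log2 difference of -0.01 beside 0.00059 over all loci, where 3.87% rose and 3.09% fell. At one total per library 3 rose and 4 fell, and with each library left out in turn 1 to 3 rose and 1 fell, with 1 riser without the first KO PB library. ALDH1A1, an aldehyde dehydrogenase that also makes retinoic acid, rose to 1176 and 1187 CPM with PB, against 636.3 and 641 CPM with DMSO (log2 difference 0.89, limma adjusted p = 5.69e-13). ADH1B, a main liver alcohol dehydrogenase, fell to 1263 and 1282 CPM with PB, against 1595 and 1600 CPM with DMSO (-0.33, limma adjusted p = 1.27e-06). ADH1A fell by 0.16, and the peroxisomal catalase gene CAT rose by 0.18 and ALDH3A2 by 0.17. With PB in WT cells, 5 rose and 2 fell (median 0.04, beside -0.0050 over all loci, where 2.66% rose and 3.76% fell), with ALDH1A1 at 0.36 and CAT at 0.24, and ADH1A at -0.32 and ADH1B at -0.16. The 5 that rose became 3 without any 1 of the 4 WT libraries and by edgeR, and 2 with only the libraries compared. With CITCO in WT cells 2 rose and 4 fell, where 1.18% and 1.02% of all loci did, led by ADH4 at -0.47 (limma adjusted p = 7.3e-06). With CITCO in KO cells 2 rose and 1 fell, where 0.386% and 0.424% of all loci did, and the 1 that fell was lost without any 1 of the 4 KO libraries. Between KO and WT cells with DMSO, 1 of the 12 was higher and 10 were lower in KO, where 28.3% and 29.4% of all loci were, and 3 and 7 were when libraries were scaled to one total. CYP2E1 thus sat beside ALDH1A1 (-1.65), CAT (-1.30) and ADH1B (-0.91), whose log2 differences between KO and WT cells were smaller in size than the -3.40 of CYP2E1.

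The CYP2 and flavin monooxygenase genes listed are few, and 0.811% to 6.96% of all loci passed in the 4 comparisons of a drug with DMSO, so counts of 0 are near that background. Of the other CYP2 genes outside the inducible CYP2A, CYP2B and CYP2C genes, 4 of 7 were tested, and 0 passed in any of these 4 comparisons by limma, with 0 at an unadjusted p under 0.05. In WT cells 0 passed by edgeR and DESeq2. The median log2 difference of these genes was -0.05 with PB in KO cells and -0.01 with PB in WT cells. Of the flavin monooxygenase genes FMO1, FMO2 and FMO4, 0 passed by limma with either drug in either genotype, and by edgeR and DESeq2 in WT cells. At an unadjusted limma p under 0.05 there was 1 with PB in KO cells, 1 with PB in WT cells, 0 with CITCO in KO cells and 1 with CITCO in WT cells. FMO2, a lung form, had 0.969 and 0.909 CPM with PB, against 1.67 and 1.66 CPM with DMSO in KO cells (log2 difference -0.59, limma adjusted p = 0.157). With only the libraries compared, 1 of the 3 genes passed as lower with PB in KO cells. Between genotypes with DMSO, 1 of the 3 flavin monooxygenase genes passed as higher in KO and 2 as lower. With libraries scaled to the same total, 1 passed as higher and 1 as lower. Of the 4 CYP2 genes tested, 2 passed as higher in KO and 0 as lower. Over all loci, 28.3% passed as higher and 29.4% as lower. FMO4 fell to 14.7 and 15.1 CPM (KO), against 28.0 and 27.3 CPM (WT), with a log2 difference of -0.87 (limma adjusted p = 6.46e-09). FMO2 went the other way, at 1.67 and 1.66 CPM (KO) against 0.714 and 0.797 CPM (WT).

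HSD3B1 belongs to steroid synthesis and conversion. Of 33 other listed genes of that group, 28 were tested, and with PB in KO cells 9 rose and 0 fell, where 3.87% and 3.09% of all loci did. The median of the list was 0.02 on the log2 scale. At one total per library 9 rose and 1 fell. AKR1D1, the steroid reductase of bile acid synthesis, rose to 65.8 and 64.4 CPM with PB, against 15.5 and 15.3 CPM with DMSO (log2 difference 2.05, limma adjusted p = 2.36e-12). AKR1C2, a hydroxysteroid dehydrogenase, rose to 874.6 and 880.2 CPM with PB, against 374.1 and 383.4 CPM with DMSO (1.21, limma adjusted p = 1.29e-14). Log2 differences were smaller for AKR1C1 (0.67), the DHEA sulfotransferase gene SULT2A1 (0.60), AKR1C4 (0.49) and HSD17B6 (0.42). AKR1C1 and AKR1C2 are near-identical copies, so their counts can share reads. In WT cells with PB, 9 rose and 0 fell, where 2.66% and 3.76% of all loci did (list median 0.16), led by AKR1D1 (1.17), AKR1C2 (0.89) and the aromatase gene CYP19A1 (0.71). With CITCO, 3 rose and 0 fell in KO cells, where 0.386% and 0.424% of all loci did. The 3 became 1 without the first KO DMSO or the first KO CITCO library, 2 without either of the other KO libraries compared, and 0 under a constant prior. In WT cells with CITCO 4 rose and 0 fell, where 1.18% and 1.02% did, and AKR1C2 stood at 0.35 in KO cells and 0.85 in WT cells. By edgeR and DESeq2 the count of lower genes in WT cells was 0 as well, and by limma with a pseudocount of 2 it was 1 with CITCO. At an unadjusted limma p under 0.05, in either direction, there were 11 genes with PB in KO cells, 14 with PB in WT cells, 7 with CITCO in KO cells and 8 with CITCO in WT cells. Between KO and WT cells with DMSO, 6 were higher and 16 lower in KO (9 and 13 at one total per library), where 28.3% and 29.4% of all loci were.

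Mucins gave little to set beside MUC13. Of 14 listed genes, 3 were tested. MUC3A, a membrane mucin of the gut that has near-identical copies, rose with PB in KO cells to 28.8 and 27.7 CPM, against 17.6 and 15.1 CPM with DMSO (log2 difference 0.77, limma adjusted p = 6.62e-05). MUC13 was lower with PB in the same libraries. In WT cells MUC3A passed with PB by limma (0.41, adjusted p = 0.0216), while no mucin passed by edgeR or DESeq2. Between genotypes with DMSO, MUC3A rose to 17.6 and 15.1 CPM (KO), against 3.39 and 3.54 CPM (WT), with a log2 difference of 2.08 (limma adjusted p = 6.48e-12). MUC5B, a secreted airway mucin, went the other way and fell to 0.418 and 0.429 CPM (KO), against 4.97 and 5.01 CPM (WT), with a log2 difference of -2.57 (limma adjusted p = 1.54e-09).

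**Figure D3:**
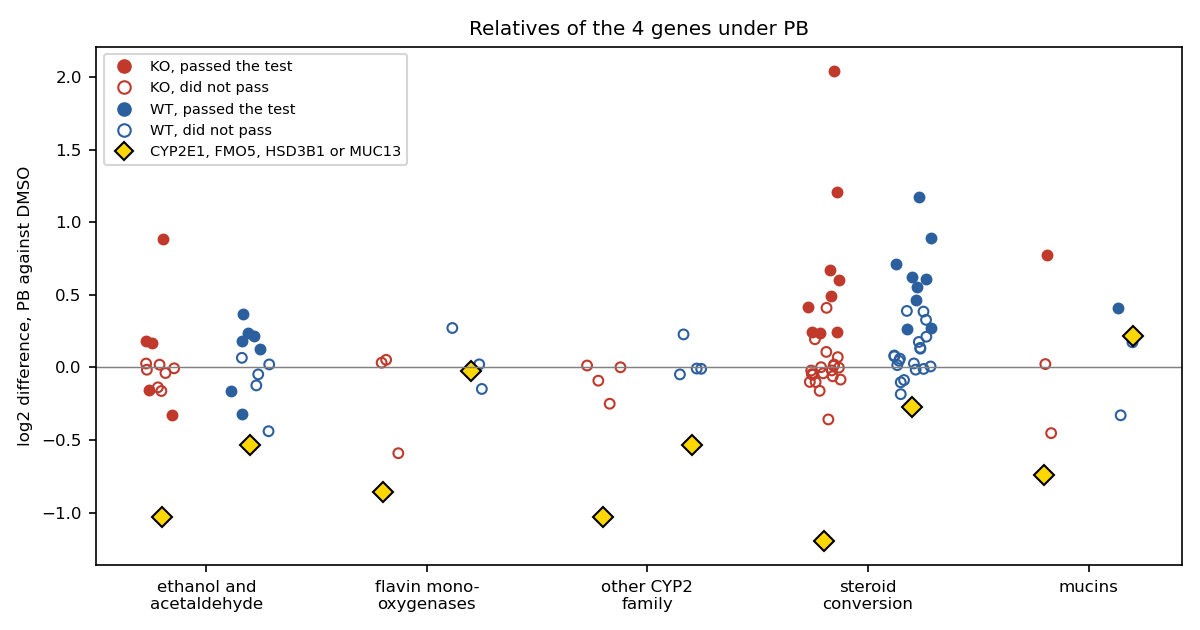
Log2 difference of PB against DMSO (y axis) for the genes of 5 lists (x axis), KO red and WT blue, filled where the test was passed. Diamonds mark CYP2E1, FMO5, HSD3B1 or MUC13 beside its list; most points of the 5 lists lie between -0.5 and 0.5, and AKR1D1 in KO cells is the highest at 2.05.

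The patterns of the 4 genes were compared over the 12 libraries after centring each gene on its genotype mean, which removes the genotype difference. Pearson's r was 0.944 for FMO5 and HSD3B1, 0.925 for CYP2E1 and HSD3B1, 0.895 for CYP2E1 and FMO5 and 0.893 for FMO5 and MUC13. It was 0.792 for HSD3B1 and MUC13 and 0.712 for CYP2E1 and MUC13. These are descriptions over 12 libraries that share their treatments, and the choice on KO cells with PB raises them. Among 11612 loci with a mean of at least 5 CPM, the 5 most like CYP2E1 were ID2 (r = 0.979), G6PC (0.9751), ACAA2 (0.957), SFXN3 (0.957) and PDZK1 (0.954). For FMO5 they were ZBED3 (0.961), HSD3B1 (0.944), CHST9 (0.930), PLXNC1 (0.928) and PTTG1IP (0.919). For HSD3B1 they were G6PC (0.956), HCN3 (0.950), FMO5 (0.944), ADH1B (0.938) and MEP1A (0.934). For MUC13 they were RNF125 (0.923), FAM35DP (0.906), CIPC (0.897), AKAP12 (0.896) and FMO5 (0.893).

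**Figure D4:**
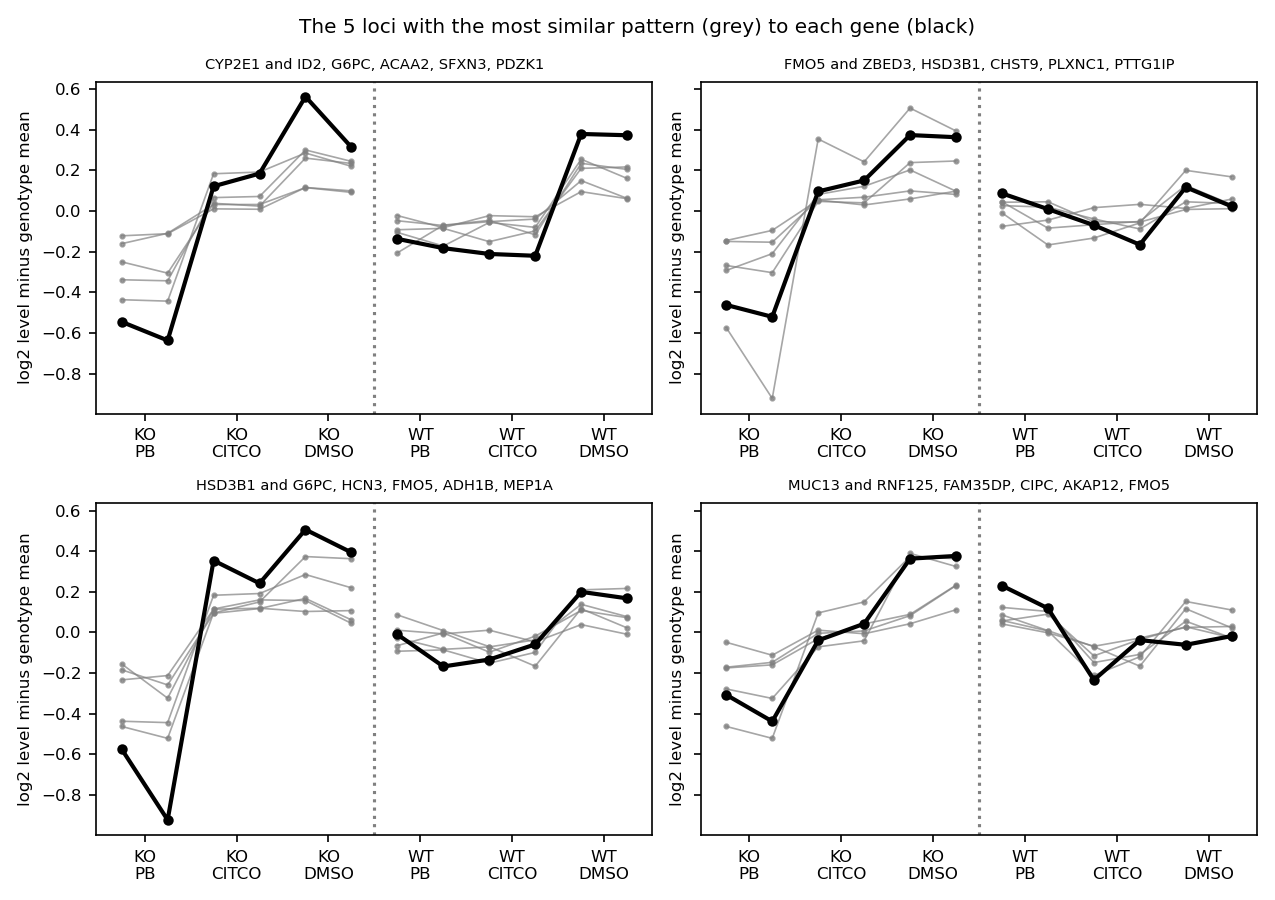
Log2 level minus the mean of the genotype (y axis) in each library (x axis, KO left of the dotted line) for each gene (black) and the 5 loci with the highest r (grey). In KO cells the black lines are lowest with PB for all 4 genes, and in WT cells CYP2E1 is highest with DMSO while MUC13 is highest with PB.

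Overlapping annotation limits some of these values. In GENCODE v29, CYP2E1 shares bases with SCART1 on the same strand and the protein-coding gene SYCE1 on the other, among others. FMO5 shares bases with the pseudogene CCT8P1 on the same strand. On the other strand it meets the pseudogene PDIA3P1 and the protein-coding gene CHD1L, among others. SYCE1 and CHD1L had no level of their own here. The sources used here do not state the library strandedness, so reads from such neighbours cannot be told apart. None of the 50-base stretches of CYP2E1, FMO5 or MUC13 transcripts occurred in the relatives searched.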

How the data were processed

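RNA was isolated with a miRNeasy kit and sequenced as standard Illumina libraries, per the labels' protocols. Per the submitters' processing notes, the tools included edgeR 2.12, Cuffdiff 2.1.1, TopHat2 2.0.10, Cufflinks 2.1.1 and Bowtie 1.0.0, whose roles are not stated there. The authors deposited 1 table of 15822 loci in a normalized signal that its name calls CPM. Library totals of that signal were 900290 to 935052 (KO) and 1071810 to 1113720 (WT). All values (100%) divided by the worth of 1 read gave whole numbers within 0.001 reads. A general check accepted whole reads for the WT columns only, so count tests were limited to the 6 WT libraries. The design had assumed plain CPM; the test planned for such values was kept.

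From the authors' deposited comparison tables, the log2 fold change and the FDR (adjusted p-value) were copied for WT PB and WT CITCO against DMSO only. limma 3.58.1 in R 4.3.3 was fitted with a trend to log2(CPM + 0.5) of all 12 libraries, with 6 group means. The test covered loci reaching 1 CPM in 2 or more libraries, and calls are Benjamini-Hochberg adjusted p under 0.05 over all 15792 loci. This scale understates the change of low genes. Genotype levels of CPM depend on the authors' scaling. Scripts were tested on simulated data. The duplicates of each group differed beyond sampling noise and were counted separately.

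The 4 genes and the gene lists were chosen with earlier results of these data known. Members were tested in the 4 comparisons whose libraries the choice did not use. The spread behind these tests was estimated from all 12 libraries, so it includes the KO libraries that chose the genes. With only the libraries compared, the limma adjusted p of CYP2E1 in WT cells was 0.00184 with PB and 0.00102 with CITCO. Named genes are the 4 genes, NR1I3, up to 6 genes per list and comparison with the largest change among those that passed with a mean of at least 5 CPM, and the 5 loci of most similar pattern for each gene. FMO2, HSD3B2, MUC5B and the single markers were named after their values were seen. Some genes are not reported here. Alternatives were pseudocounts of 0.1 and 2, a filter at 5 CPM and none, one total per library, a constant prior, only the libraries compared, a replicate block, each library left out, and edgeR 4.0.16 and DESeq2 1.42.0 on WT reads.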

Additional observations from a re-analysis of the deposited data

Results flagged for a closer look

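The MUC13 libraries with PB lay on opposite sides of the DMSO libraries in the 2 genotypes, although the WT difference did not pass (0.21, limma adjusted p = 0.269). Both KO libraries with PB (12.2 and 11.1 CPM) were below the KO DMSO libraries (19.7 and 19.8 CPM), as for 25.3% of all loci. Both WT libraries with PB (5.60 and 5.14 CPM) were above the WT DMSO libraries (4.48 and 4.63 CPM), as for 18.9%. The share of all loci that did both was not counted. The KO minus WT difference of the PB response was -0.96 on the log2 scale. It was not tested, because the KO libraries chose the gene.

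Responses of several related genes differed between genotypes by limma's test of the difference itself, adjusted over all loci. Only list genes among the largest passing changes for the same drug against DMSO were looked at. That choice used the same libraries, so it is not independent of this test. Over all loci, 1.01% passed for PB and 0.336% for CITCO. For PB, 159 loci passed, and 25 under a constant prior. The PB response, KO minus WT on the log2 scale, was 0.87 for AKR1D1 (limma adjusted p = 0.00037), 0.52 for ALDH1A1 (2.65e-06), 0.32 for AKR1C2 (0.00126) and -0.32 for ALDH1B1 (0.0278). The CITCO response, KO minus WT, was 0.47 for ADH4 (limma adjusted p = 0.00167), 0.42 for ADH1A (0.00167), -0.29 for AKR1C1 (0.00181) and -0.50 for AKR1C2 (9.61e-06). The PB and CITCO responses share their DMSO libraries.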

How the results depend on the processing

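CYP2E1 passed in WT cells with PB and with CITCO, and CYP2E1, HSD3B1 and MUC13 passed between genotypes under CITCO, in every alternative run. Of 216 alternative values of tested changes, 206 kept direction and side of the threshold, and 9 values of changes that had not passed turned sign. FMO5 with PB in WT cells was 0.025 without the first WT DMSO library and 0.017 without the second WT PB library (range over libraries left out -0.069 to 0.025). FMO5 with CITCO in WT cells ranged from -0.24 to -0.14, and passed at -0.23 without the second WT DMSO library. MUC13 with CITCO in WT cells ranged from -0.19 to 0.0016. HSD3B1 for PB against CITCO in WT cells was -0.039 at one total per library and -0.071 to 0.086 with a library left out. FMO5 between genotypes was 0.24 at one total per library under CITCO (-0.062 to 0.034 with a library left out), and 0.31 (-0.0037 to 0.091 with a library left out) under DMSO, against 0.04.

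Counts of loci past the threshold moved more. For WT PB against DMSO they were 1014, with 537 under a constant prior, 669 by DESeq2, 554 by edgeR and 242 with only the libraries compared. For WT CITCO against DMSO they were 348, with 96, 206, 137 and 72 in the same order, and 109 to 992 with a library left out, the highest without the second WT DMSO library. For WT PB against CITCO they were 992, with 434, 632, 500 and 437, and 377 to 1215. For KO PB against DMSO they were 1099, with 612 under a constant prior and 523 to 671 with a library left out, and for KO CITCO against DMSO 128, with 20, 232 with only the libraries compared and 40 to 55. For the difference of the CITCO responses they were 53, with 6 under a constant prior and 491 without the second WT DMSO library. One total per library gave 8090 higher and 2511 lower loci, against 4622 and 4702, between genotypes under CITCO. The splits were 8291 and 2312 against 4462 and 4644 under DMSO, 367 and 727 against 420 and 594 for WT PB, 252 and 102 against 187 and 161 for WT CITCO, 250 and 947 against 419 and 573 for WT PB against CITCO, and 480 and 707 against 611 and 488 for KO PB. The differences between replicates 1 and 2 correlated unevenly between groups (r -0.158 to 0.412 over 15 pairs of groups, over 0.1 in 6). The r was 0.412 for WT DMSO and WT PB, 0.336 for KO DMSO and WT DMSO and 0.312 for KO DMSO and KO PB. Each r rests on 1 difference between 2 libraries per group, so it cannot show whether libraries of one replicate number belong together. The main fit did not pair libraries by that number. With a replicate block the counts were 1003, 367, 951, 9338, 1105 and 117 for WT PB, WT CITCO, WT PB against CITCO, the genotypes under CITCO, KO PB and KO CITCO. Between genotypes edgeR and DESeq2 were not run, since reads were taken for WT only. Of 1280 alternative list counts, 1154 stayed within 1.5 times of the main count. By depth, HSD3B2 in KO cells was the least certain level, at 3 to 15 reads per library.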

Other observations

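Single steroid genes differed between genotypes in both directions. CYP17A1, the hydroxylase and lyase of androgen synthesis, rose to 18.7 and 17.7 CPM in KO cells with DMSO, against 1.70 and 1.87 CPM in WT cells with DMSO (log2 difference 3.04, limma adjusted p = 6.1e-13). SRD5A2, which reduces testosterone to dihydrotestosterone, rose to 10.6 and 11.7 CPM in KO cells, against 1.03 and 0.881 CPM in WT cells (3.01, limma adjusted p = 3.3e-12). CYP21A2, the adrenal hydroxylase with a pseudogene copy that can share its reads, fell to 8.497 and 8.03 CPM in KO cells, against 24.9 and 29.5 CPM in WT cells (-1.66, limma adjusted p = 1.3e-10). HSD17B2, which inactivates oestradiol and testosterone, fell to 6.94 and 6.74 CPM in KO cells, against 18.9 and 18.4 CPM in WT cells (-1.38, limma adjusted p = 6.56e-10).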
